A study of Mus musculus with 107 samples.

Results

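The proteasome genes of mouse liver were examined in female F2 mice, whose grandparents came from C57BL/6J and DBA/2J, both inbred. Members were all array probes whose single gene symbol begins with Psma, Psmb, Psmc, Psmd or Psme and a number, which gave 45 probes of 42 genes among 23536 probes, and all 45 passed the filter of measured values on at least 90% of arrays. Of these genes, 40 (on 42 probes) encode proteasome subunits, activators or, for Psmd9 and Psmd10, assembly chaperones of the cap, and 2 (Psme3ip1 on 2 probes and Psmc3ip on 1 probe) are named after a subunit but encode none. The member rule used names and no measured value beyond that filter, though it was set with earlier results of these data known.

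All mice ate an atherogenic diet, and each liver's RNA was compared on a 2-colour array with a pool made of RNA from all of them. The labels state 111 mice, and 107 arrays were analysed here, of which 3 held only 0 or missing values, so n = 104 mice of 1 group. No control diet, no mice of the parental strains and no age are given in the labels, so the data show how mice of 1 cross on 1 diet differ from each other and compare no treatments. Values are log2 ratios of mouse to pool, read from deposited values taken as log10. The base and the direction are inferred and not given in the labels. If the ratio were pool to mouse, every sign would turn and highest and lowest mice would change places, while correlations between genes would stay. A gene's ratio says nothing of its absolute level, so levels of different genes and the tissue label itself could not be checked, and 7 of 8 listed hepatocyte markers were measured. Liver pieces hold several cell types, and a change in the number of cells of a type cannot be told apart from a change of RNA per cell.

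Of the arrays, 18 had 946 to 1828 values that stopped at the scale's end points, and the remaining 86 had 0 to 496, and the main results are given with and without these limit-rich arrays. Each liver was measured once, so noise of the array is part of every spread given here, and precision depends on how many arrays there are. Among the proteasome genes only 1 value lay at the limits. Single mice held many of the extremes: mouse 18 had the highest value of 9 of the 40 genes, mouse 20 the highest of 7 and the lowest of 1, mouse 43 the highest of 7, and mouse 101, on a limit-rich array, the lowest of 7. Mouse 26 had the lowest value of 5 genes.

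The proteasome is the barrel-shaped protease that degrades proteins tagged with ubiquitin. Its 20S core stacks rings of alpha subunits (Psma), which gate the entrance, and rings of beta subunits (Psmb), of which Psmb5, Psmb6 and Psmb7 carry the cutting sites. The 19S cap recognises and unfolds substrates, using ATPases (Psmc) and non-ATPase subunits (Psmd). Under interferon, cells make Psmb8, Psmb9 and Psmb10, which take the places of Psmb5, Psmb6 and Psmb7 in newly built cores. The resulting immunoproteasome, helped by the PA28 activator of Psme1 and Psme2, cuts peptides for display on class I molecules. In liver both blood-derived cells and hepatocytes can make it. Here, constitutive genes are the 32 genes of the 20S core and 19S cap. By their names, Psmd9 and Psmd10 are counted with the cap and Psma8 of the testis with the core. Inducible genes are the 5 genes Psmb8, Psmb9, Psmb10, Psme1 and Psme2.

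The measured members were 8 alpha genes, among them Psma8, an alpha subunit of the testis, 7 constitutive beta genes, the 3 immunoproteasome genes, Psmb11 of the thymus, 5 cap ATPases, 12 cap non-ATPases and 4 activators. Psmc2, Psmd5 and Psmd13 were not among the genes analysed here.

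Psmb8, which replaces Psmb5, ranged from -0.91 in mouse 144 through a median of -0.24 to 1.20 in mouse 20. Psmb9, which replaces Psmb6, ranged from -0.96 in mouse 134 through a median of -0.16 to 0.88 in mouse 45. Psmb10, which replaces Psmb7, ranged from -0.97 in mouse 87 through a median of -0.16 to 0.67 in mouse 29. In the inferred direction the highest mice stood further above the median than the lowest stood below it for Psmb8 and Psmb9, and only slightly so for Psmb10, and in the opposite direction this would turn round.

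Psmb5, the chymotrypsin-like site, ranged from -0.55 in mouse 26 through 0.05 to 0.81 in mouse 43. Psmb6, the caspase-like site, ranged from -1.37 in mouse 78 through 0.08 to 1.02 in mouse 43. Psmb7, the trypsin-like site, ranged from -0.94 in mouse 78 through -0.04 to 0.61 in mouse 18. Mouse 43 was highest for Psmb5 and Psmb6 and mouse 78 lowest for Psmb6 and Psmb7. No mouse at an end of these ranges had the highest or lowest value of an immunoproteasome gene. Mouse 26, lowest for Psmb5, was nevertheless high for Psmb8, at 1.05.

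The activator genes had narrower ranges than the immunoproteasome genes. Psme1 ranged from -0.47 in mouse 78 through 0.01 to 0.78 in mouse 21, and Psme2 from -0.53 in mouse 15 through -0.11 to 0.84 in mouse 142. Psme3, the nuclear relative of PA28, ranged from -0.68 in mouse 144 through -0.05 to 0.81 in mouse 20. Psme4, a large single-chain activator, ranged from -1.10 in mouse 20 through -0.12 to 0.36 in mouse 134, so mouse 20 was highest for one of these activators and lowest for the other.

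**Figure D1:**
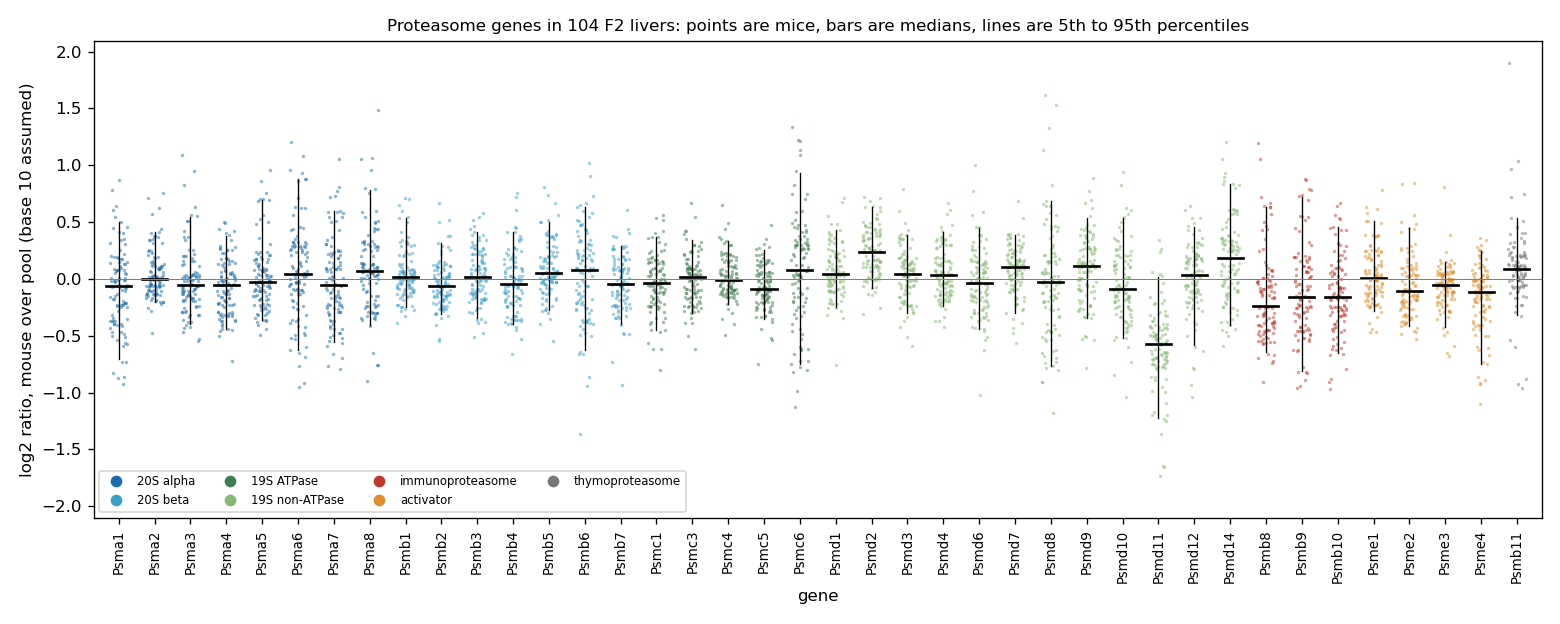
Log2 ratio of mouse to pool (y axis, base 10 assumed for the deposited values) for 40 proteasome genes ordered by role (x axis), with 1 point per mouse (104 mice), a bar at the median and a line from the 5th to the 95th percentile. Psmc6, Psmb9, Psma6 and Psmd8 have the longest lines, and Psmd11 lies below 0 in most mice.

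The stretches upstream of some catalytic genes are shown as a description of letters. Whether these letters bear on the values over mice was not tested. Sequences and positions are those of RefSeq for assembly GRCm38.p6, 5' to 3' on the gene's strand, ending at the base before the gene's start. For Psmb9 the 225 bases that separate it from the divergent gene Tap1 (chr17:34187331-34187555, minus strand) are given. The Psmb8 stretch (chr17:34197945-34198194, plus strand) lies nearby, and its capitals mark a match to TTCNNNGAA, the letters of the GAS element, which starts 97 bases before the gene. The stretches of Psmb5 (chr14:54617996-54618245, minus strand) and Psmb6 (chr11:70525107-70525356, plus strand) carry in capitals a match to the letters TGACNNNGC, the core of the antioxidant response element, which Nfe2l1 also binds, starting 47 and 9 bases before the gene.
Psmb9 to Tap1: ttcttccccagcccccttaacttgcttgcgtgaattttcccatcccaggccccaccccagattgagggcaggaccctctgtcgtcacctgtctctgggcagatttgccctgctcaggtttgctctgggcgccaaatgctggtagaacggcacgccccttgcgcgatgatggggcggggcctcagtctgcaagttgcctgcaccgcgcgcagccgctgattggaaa
Psmb8: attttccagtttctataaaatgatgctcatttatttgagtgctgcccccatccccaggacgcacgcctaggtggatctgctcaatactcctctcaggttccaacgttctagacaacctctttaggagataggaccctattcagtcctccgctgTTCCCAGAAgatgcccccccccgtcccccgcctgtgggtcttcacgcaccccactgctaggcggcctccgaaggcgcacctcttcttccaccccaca
Psmb5: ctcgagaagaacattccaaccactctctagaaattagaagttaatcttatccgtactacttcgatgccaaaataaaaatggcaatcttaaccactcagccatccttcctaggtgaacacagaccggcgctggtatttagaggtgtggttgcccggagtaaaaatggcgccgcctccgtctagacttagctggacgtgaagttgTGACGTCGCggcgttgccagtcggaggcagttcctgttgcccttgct
Psmb6: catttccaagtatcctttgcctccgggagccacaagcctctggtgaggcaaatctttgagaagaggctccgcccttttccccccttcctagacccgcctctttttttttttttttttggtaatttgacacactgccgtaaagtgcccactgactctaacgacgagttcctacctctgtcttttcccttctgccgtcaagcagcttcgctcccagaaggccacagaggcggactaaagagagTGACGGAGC

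The 250 bases upstream were searched on both strands for 4 sets of letters in 33 members that had an entry, 25 of them constitutive and 5 inducible. GAS letters were found in 1 of 5 inducible genes (Psmb8) and 0 of 25 constitutive genes, against 7.02% of 32851 windows of the same length. The ISRE core bound by interferon regulatory factors, which is GAAA, any 2 bases and GAAA again, was found in 0 of 5 inducible genes and 3 of 25 constitutive genes (Psmb3, Psmd4 and Psmd9), against 2.98% of windows. The antioxidant core was found in 0 of 5 inducible genes and 5 of 25 constitutive genes (Psmb5, Psmb6, Psmc6, Psmd9 and Psmd12), against 10.2% of windows. CCAAT boxes were found in 1 of 5 inducible genes (Psmb9) and 10 of 25 constitutive genes, against 33.8% of windows. A match is a description of letters, and windows further away were not searched.

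The spread over mice was taken as the fold between the 5th and 95th percentiles. Its median was 1.81 over the 40 genes and 1.94 over all 12315 genes. The 3 widest members were Psmc6, an ATPase, at 3.19, Psmb9 at 2.89 and Psma6, an alpha subunit, at 2.83. The 3 narrowest were the ATPase Psmc4 at 1.47, Psme3 at 1.48 and the ATPase Psmc5 at 1.52, so the cap's ATPase ring held both the widest and the narrowest gene. Psmb8 had 2.43 and Psmb10 2.15. If the deposited values were natural logarithms, the fold of Psmb9 would be 1.59 in place of 2.89, with the order of genes kept.

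Each immunoproteasome gene was set against the gene it replaces. The SD of Psmb8 was 0.39 and that of Psmb5 0.24 (n = 104 mice), and the spreads differed (correlation of sum and difference 0.448, permutation p = 1e-05, adjusted over 6 tests 2e-05). Psmb10 also varied more than Psmb7, with SDs of 0.34 and 0.24 (0.322, permutation p = 0.00094, adjusted 0.00113). Psmb9 and Psmb6 had SDs of 0.41 and 0.40, a difference that did not pass the test (0.0329, permutation p = 0.74). These tests were two-sided with 100000 permutations, and 1e-05 is the smallest p they can give. In the 18 limit-rich arrays alone the Psmb8 test was 0.269 (permutation p = 0.279) and the Psmb9 test -0.0496 (permutation p = 0.846), while the Psmb10 test was 0.561 (permutation p = 0.0139, adjusted 0.0417).

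Pairs of members were then compared by Pearson r over mice, as a description. The 32 constitutive genes had a mean pairwise r of 0.377 (SD 0.278 over 496 pairs, 448 of them positive). Without the limit-rich arrays this mean was 0.368, and in these arrays alone 0.457. Over pairs of all genes with a value on every array the mean was 0.00297. Array medians lay between -0.09 and 0.07, which holds that last mean near 0. It is therefore no measure of how coherent other sets of genes are. All points share 1 array per mouse, so noise of an array enters every pair. Within classes the mean was 0.478 for alpha genes, 0.623 for constitutive beta genes, 0.626 for cap ATPases and 0.212 for cap non-ATPases. The last class was the least uniform, with pairs from -0.432 to 0.794.

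The 3 immunoproteasome genes had a mean pairwise r of 0.754, which was 0.763 without the limit-rich arrays and 0.630 in them alone. Psme1 and Psme2, neighbours on chromosome 14, had r = 0.741, and the immunoproteasome genes and these activators together had a mean of 0.658 over 6 pairs. Psmb8 and Psmb9 lie close together on chromosome 17, while Psmb10 lies on chromosome 8 and had r = 0.726 with Psmb8 and 0.702 with Psmb9.

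Between both sets the mean r was low, while single pairs had either sign. Constitutive genes had a mean r of 0.0489 (SD 0.161 over 96 pairs, from -0.328 to 0.466) with the immunoproteasome genes. With Psme1 and Psme2 their mean r was 0.149 (64 pairs, from -0.305 to 0.616, 49 of them positive). In the limit-rich arrays alone the first of these means was -0.143. Psmb8 had r = 0.0630 with Psmb5, the subunit it replaces, while Psmb5 had r = 0.683 with Psmb7. When each gene was scaled to SD 1 and averaged, the constitutive and the immunoproteasome mean had r = 0.0849 (rho 0.0540), 0.102 without the limit-rich arrays and -0.304 in them alone.

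**Figure D2:**
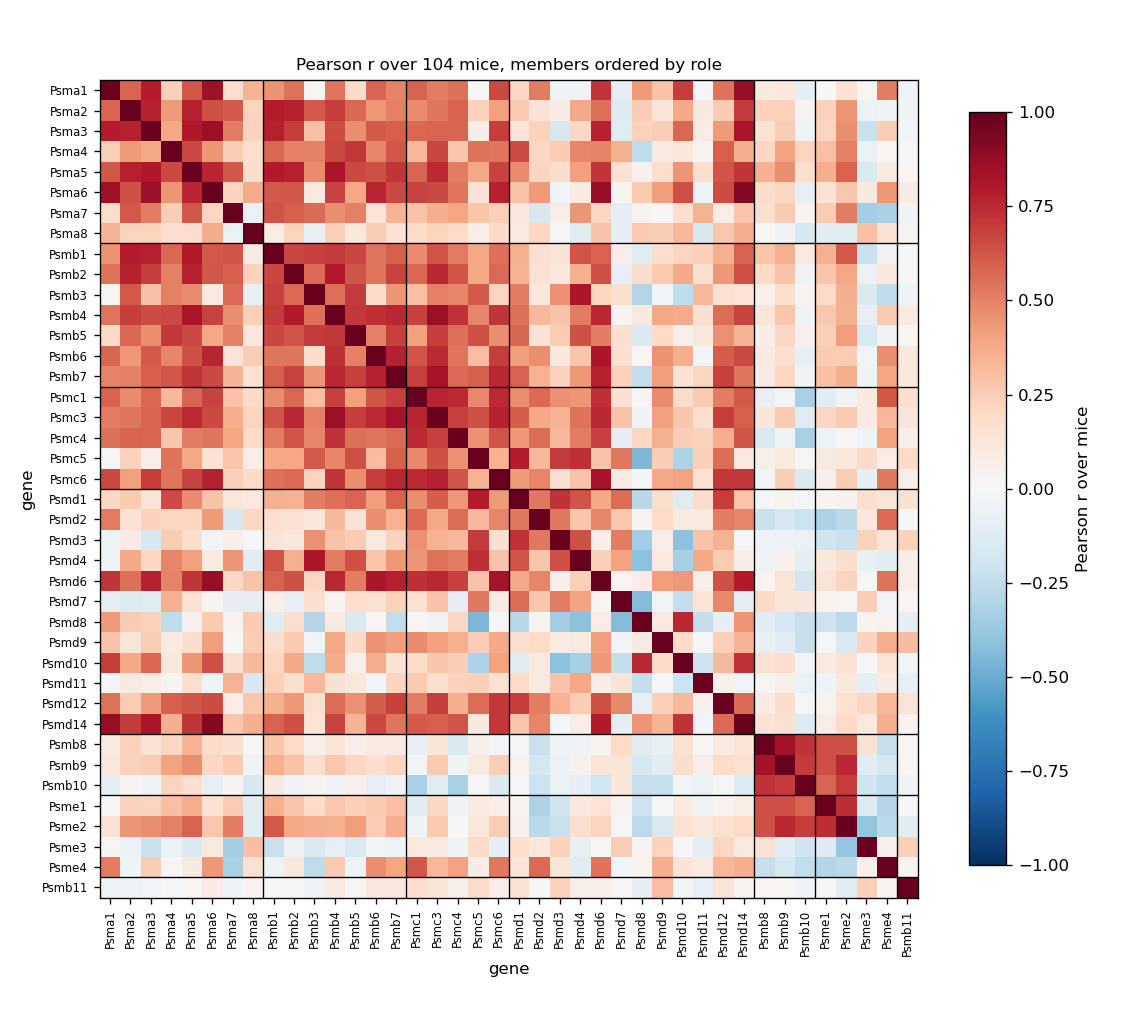
Pearson r over 104 mice for each pair of 40 proteasome genes, which stand on both axes in order of role, from -1 (blue) to 1 (red), with black lines between roles. The core and most cap genes form a red block, and Psmb8, Psmb9, Psmb10, Psme1 and Psme2 form a second one. The cells between them are mostly pale and of both signs, with a mean r of 0.0489 between constitutive and immunoproteasome genes.

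**Figure D3:**
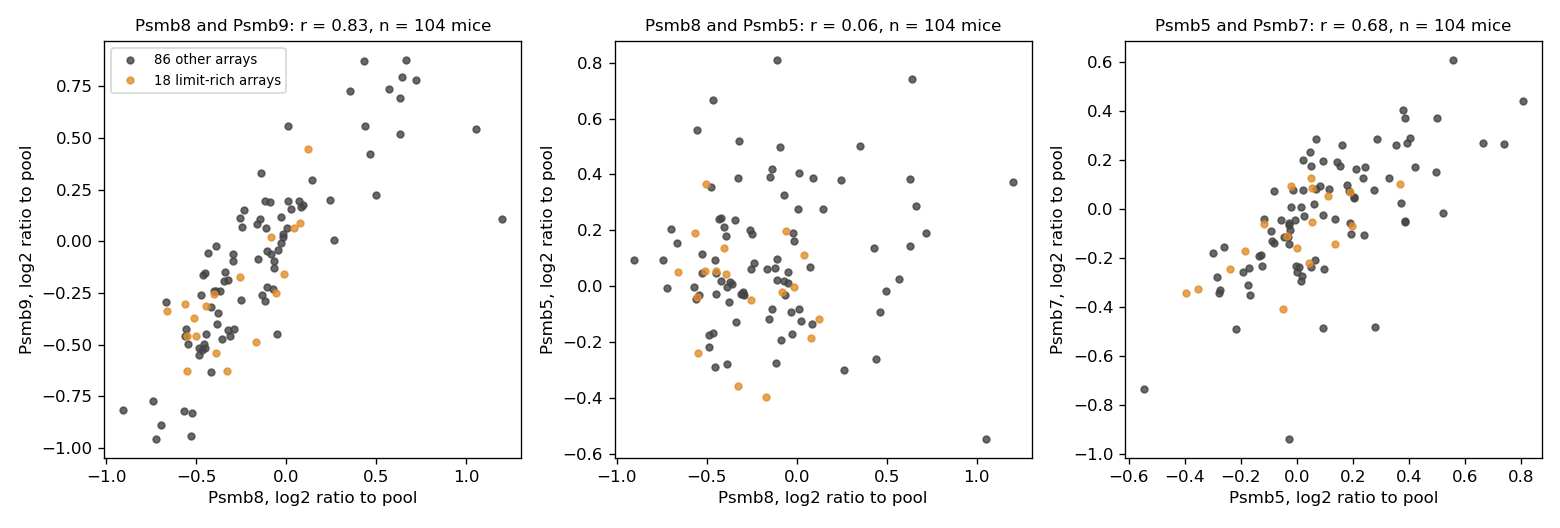
Log2 ratios to the pool of pairs of genes, 1 point per mouse, orange for the 18 limit-rich arrays and grey for the other 86. Psmb8 and Psmb9 lie along a line (r = 0.833), as do Psmb5 and Psmb7 (r = 0.683), while Psmb8 and Psmb5 do not (r = 0.0630), and mouse 20 with the highest Psmb8 lies off the first line.

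At the ends of these means, some mice held the sets apart and others held them together. Mouse 18 had the highest constitutive mean, 2.02 SD units, with an immunoproteasome mean of -1.01. Its log2 ratios were 1.33 for Psmc6, 0.91 for Psmb6 and 0.56 for Psmb5, against -0.56 for Psmb8 and -0.43 for Psmb9. Mouse 45 had the highest immunoproteasome mean, 2.27, with a constitutive mean of 0.45. Mouse 142 was high in both, at 1.34 and 1.97, and mouse 101 had the lowest constitutive mean, -1.35, with an immunoproteasome mean of -0.70. Mice 78, 130 and 71, next lowest in the constitutive mean, had immunoproteasome means of -0.46, -0.66 and -0.30. Mice 43 and 31, also among the highest in the constitutive mean, had -0.55 and -0.51. Mouse 134 had the lowest immunoproteasome mean, -1.62, with a constitutive mean of 0.11.

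Members differed in how closely they followed the other constitutive genes. Among alpha genes Psma5 had the highest r with their mean, 0.855, and Psma8 the lowest, 0.248. Among beta genes Psmb4 had 0.890 and Psmb3 0.512. Among cap ATPases Psmc3 had 0.890 and Psmc5 0.552, and among non-ATPases Psmd6, of the lid, had 0.817 and Psmd8, also of the lid, 0.00218. In all, 23 of the 32 genes had at least 0.5. The closest pair was Psma6 and Psmd14, the deubiquitinase of the cap, at 0.921, and Psma1 and Psmd14 had 0.874. The most opposed pair was Psmc5 and Psmd8 at -0.450, and Psmd8 also ran against Psmd7 at -0.432 and Psmd4, a ubiquitin receptor, at -0.407.

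A few genes had several probes. The probes of Psmd7, a lid subunit, had r = -0.00247 with each other over 104 mice. One of them had r = 0.668 with the constitutive mean and the other -0.311, so the averaged gene value of Psmd7 is uncertain. The probes of Psmd11 had r = 0.0417, and their medians were 0.04 and -1.28, so the low position of Psmd11 came from 1 probe. Among the genes that encode no subunit, the probes of Psme3ip1, a binding partner of Psme3, had r = -0.0416, and Psmc3ip, a factor of meiotic recombination, was measured in 98 mice with an SD of 1.15.

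Genes that varied with Psmb8 were sought over the whole table with limma, with p-values adjusted by Benjamini and Hochberg over 12314 genes at 0.05. Positive calls made up 4.82% of all genes and negative calls 2.29%. All 4 other inducible genes were called positive, and 1 of 32 constitutive genes was, with 0 called negative (6 positive and 1 negative at an unadjusted p under 0.05). The median slope was 0.21 log2 per SD of Psmb8 over the inducible genes, 0.02 over the constitutive genes and -0.01 over all genes. The constitutive gene was Psma5 (r = 0.350, rho 0.242, limma adjusted p = 0.00953), and it was not called when mouse 20 was left out. Without the limit-rich arrays, where positive calls made up 4.86% and negative calls 1.77% of all genes, the counts were again 4 of 4 inducible and 1 of 32 constitutive genes. The catalytic partners Psmb5, Psmb6 and Psmb7 had r = 0.0630, 0.0877 and 0.0824 with Psmb8.

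Psmb9 rose by 0.34 log2 per SD of Psmb8 (SE 0.02, limma adjusted p = 6.1e-24), with r = 0.833 and rho = 0.854. Psmb10 rose by 0.25 (SE 0.02, limma adjusted p = 1.61e-14), with r = 0.726 and rho = 0.749. The activators Psme1 (r = 0.641, rho 0.607) and Psme2 (r = 0.637, rho 0.634) rose by 0.16 and 0.17 (limma adjusted p = 6.12e-10 and 7.12e-10). Each of these r and rho had a permutation p of 1e-05, and without mice 20 and 26, the farthest from the median of Psmb8, the 4 values of r were 0.877, 0.776, 0.700 and 0.687. In the 86 arrays they ranged from 0.628 to 0.835 and in the 18 limit-rich arrays from 0.596 to 0.744. With 18 arrays none of the 4 passed adjustment over all genes, and all 4 had an unadjusted p under 0.05. Psme3 and Psme4, which are no part of PA28 alpha and beta, were not called (r = 0.143 and -0.229), nor was Psmb11 (r = 0.020).

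The count of all genes called with Psmb8 depended on few mice, and the calls of the inducible members did not. In mouse 20 Psmb8 was 1.20 while Psmb9 was 0.11 and Psmb10 0.21, and in mouse 26 Psmb8 was 1.05, Psmb9 0.55 and Psmb10 -0.04. Positive calls over all genes fell from 593 to 203 without mouse 20, to 303 without mouse 26 and to 150 without both, while all 4 inducible members were called each time.

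**Figure D4:**
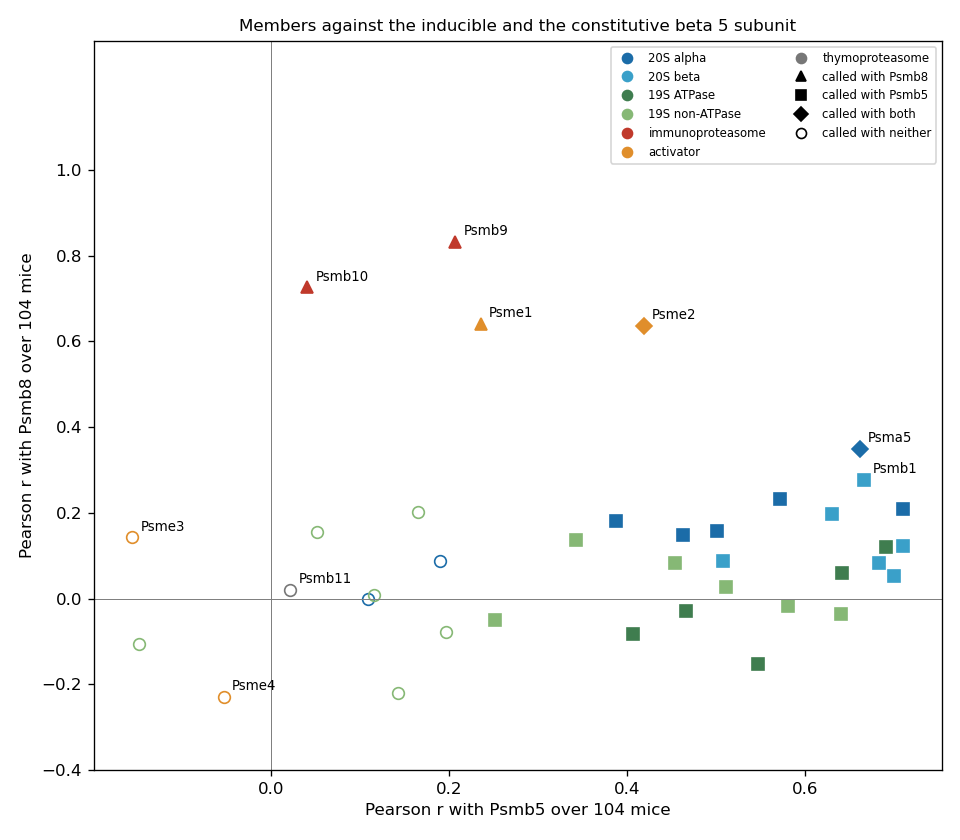
Pearson r with Psmb5 (x axis) and with Psmb8 (y axis) over 104 mice for the proteasome genes, coloured by role, with shapes for calls in the limma fits. Psmb9, Psmb10, Psme1 and Psme2 lie at the top (r with Psmb8 0.637 to 0.833), and most core and cap genes lie at the lower right.

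Genes of the same biology were read from lists. Of 10 class I presentation genes, 2 were called positive with Psmb8: the peptide transporter genes Tap1 (r = 0.608, limma adjusted p = 7.35e-09) and Tap2 (r = 0.594, limma adjusted p = 2.75e-08). Tap1 and Tap2 are neighbours of Psmb8 and Psmb9 on chromosome 17. The class I heavy chain H2-D1 (r = 0.161), the loading factor Tapbp (r = 0.154) and Pdia3 (r = 0.143) were not called. Of 19 interferon response genes, 9 were called positive, led by the guanylate-binding proteins Gbp3 (r = 0.562) and Gbp2 (r = 0.517), Irf1 (r = 0.513), the GTPase Igtp (r = 0.465) and Ifit2 (r = 0.417). Of 12 T and NK cell markers, 8 were called positive with Psmb8, as were 3 of 8 neutrophil markers (S100a8, S100a9 and Ngp), 1 of 6 B and plasma cell markers, and 0 of 12 macrophage, 0 of 6 class II, 0 of 5 endothelial and 0 of 7 hepatocyte genes, and the endothelial gene Eng was negative. With the limit-rich arrays left out, 6 of 8 neutrophil markers were positive, with Camp, Ltf and Mpo added, beside 7 T and NK markers and 8 interferon response genes, and Eng was not called. The 12 T and NK markers had a mean log2 ratio from -1.10 through a median of -0.34 to 2.31, and their mean had r = 0.468 with the immunoproteasome mean. With that mean as a covariate, all 4 inducible genes were still called with Psmb8, the constitutive calls went from 1 to 0, and the positive calls over all genes from 593 to 71, or 0.577% of genes, with 0.0487% negative. The counts for these lists and the T and NK covariate fit were not repeated without mouse 20 or mouse 26. Positive calls over all genes were 203 without mouse 20 and 303 without mouse 26. How far the T and NK calls, the neutrophil calls and the fall to 71 rest on these mice was thus not tested. Macrophage markers had r = 0.142 with the immunoproteasome mean and hepatocyte markers -0.0238.

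The same fit on Psmb5 gave positive calls for 13.3% and negative calls for 13.9% of genes. Of 31 other constitutive genes, 23 were called positive and 0 negative, and the median slope was 0.13 log2 per SD of Psmb5 against 0.01 over all genes. Without the limit-rich arrays, where calls made up 13.5% and 13.6% of genes, 23 were again positive, with Psmd9 among them and Psmd3 not. On all arrays, all 6 other constitutive beta genes, 6 of 8 alpha genes, all 5 ATPases and 6 of 12 non-ATPases were positive. The closest were Psmb4 (r = 0.710, rho 0.679, limma adjusted p = 4.36e-14), Psma4 (r = 0.710, rho 0.696, limma adjusted p = 4.63e-14) and Psmb3 (r = 0.699, rho 0.724, limma adjusted p = 1.75e-13), and without mice 43 and 142 their r were 0.667, 0.691 and 0.687. Of the 8 not called, Psma1 (r = 0.190), Psma8 (0.109), Psmd2 (0.142), Psmd7 (0.165), Psmd9 (0.197), Psmd10 (0.0517) and Psmd11 (0.115) had values above 0, and Psmd8 had -0.148. Psmd9 and Psmd10 are chaperones that help assemble the base of the cap and leave before it is complete.

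Of the 5 inducible genes, 1 was called with Psmb5: Psme2 (r = 0.419, rho 0.406, limma adjusted p = 0.000166). Beside this stand 13.3% positive and 13.9% negative calls over all genes. Counts of 1 of 5, and of 3 of 14 below, lie near that positive share. Psme1 had r = 0.235 (limma adjusted p = 0.0576), and it was called when the limit-rich arrays were left out (r = 0.297, limma adjusted p = 0.0257). Psmb5, Psme1 and Psme2 lie close together on chromosome 14, with upstream stretches that begin at 54617996, 55578244 and 55591102. Any part of this closeness in the calls of Psme1 and Psme2 was not tested. Psmb9 had r = 0.207 and Psmb10 0.0406. Of 14 assembly factors and partners, 3 were called positive: Pomp, which matures the core (r = 0.607, limma adjusted p = 1.32e-09), Sem1, a small cap subunit (r = 0.483, limma adjusted p = 1e-05), and Psmg1, a chaperone of the alpha ring (r = 0.404, limma adjusted p = 0.000281). Ufd1 (r = -0.193) and Usp14 (r = 0.177) were not called. Class I presentation genes held 1 positive call (Calr) and 5 negative calls (B2m, Tap2, Tapbp, Erap1 and Canx) of 10. B2m was not called without the limit-rich arrays. Tap2 was thus called positive with Psmb8 and negative with Psmb5.

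Irf1, a transcription factor induced by interferon, was a gene outside the members. It ranged from -1.10 in mouse 15 through a median of 0.01 to 1.33 in mouse 21. Positive calls with Irf1 made up 1.89% of genes and negative calls 2.29%. All 5 inducible genes were called positive, with a median slope of 0.20 log2 per SD of Irf1 against -0.0046 over all genes. In order they were Psmb10 (r = 0.702, rho 0.630), Psmb9 (0.622, rho 0.479), Psme2 (0.562, rho 0.405), Psmb8 (0.513, rho 0.495) and Psme1 (0.484, rho 0.319), with limma adjusted p from 1.16e-12 to 7.53e-05. Without the 2 mice farthest from the median of Irf1 the r were 0.678, 0.566, 0.484, 0.466 and 0.383. In the limit-rich arrays alone 0 of the 5 passed adjustment and 2 had an unadjusted p under 0.05, with r from 0.307 for Psmb9 to 0.787 for Psmb10.

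Of 32 constitutive genes, 0 were called positive with Irf1 and 2 negative, namely Psmd8 (r = -0.324, limma adjusted p = 0.0271) and Psmc4 (r = -0.304, limma adjusted p = 0.0486), beside 2 positive at an unadjusted p under 0.05. Both negative calls were lost without the limit-rich arrays (limma adjusted p = 0.0543 and 0.127), where positive calls made up 1.19% and negative calls 1.17% of genes and all 5 inducible genes were called. Class II genes were called with Irf1 in 5 of 6 cases and class I genes in 3 of 10 (Tap1, Tap2 and Tapbp), and without the limit-rich arrays in 6 of 6 and 2 of 10, with Tapbp not called.

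The difference between each immunoproteasome gene and the gene it replaces, both scaled to SD 1, was tested against Irf1 directly. The difference Psmb9 minus Psmb6 had r = 0.516 and rho = 0.403 with Irf1 (permutation p = 1e-05 each, adjusted over 6 tests 2e-05 and 3e-05, n = 104 mice). Psmb10 minus Psmb7 had r = 0.475 and rho = 0.484 (permutation p = 1e-05 each). Psmb8 minus Psmb5 had r = 0.349 (permutation p = 0.00034, adjusted 0.00051) and rho = 0.385 (permutation p = 0.00011). Without the 2 mice farthest on Irf1 the r were 0.478, 0.473 and 0.370, and in the 86 arrays 0.524, 0.463 and 0.369. In the limit-rich arrays alone they were 0.457 (permutation p = 0.0557), 0.582 (permutation p = 0.0114) and 0.210 (permutation p = 0.406), with lower rho of 0.199 (permutation p = 0.423), 0.317 (permutation p = 0.199) and 0.0196 (permutation p = 0.941). Without the 2 mice farthest on Irf1 these arrays gave r of 0.216, 0.369 and 0.177. The separate r with Irf1 of Psmb5, Psmb6 and Psmb7 were 0.0355, -0.0450 and 0.0174.

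**Figure D5:**
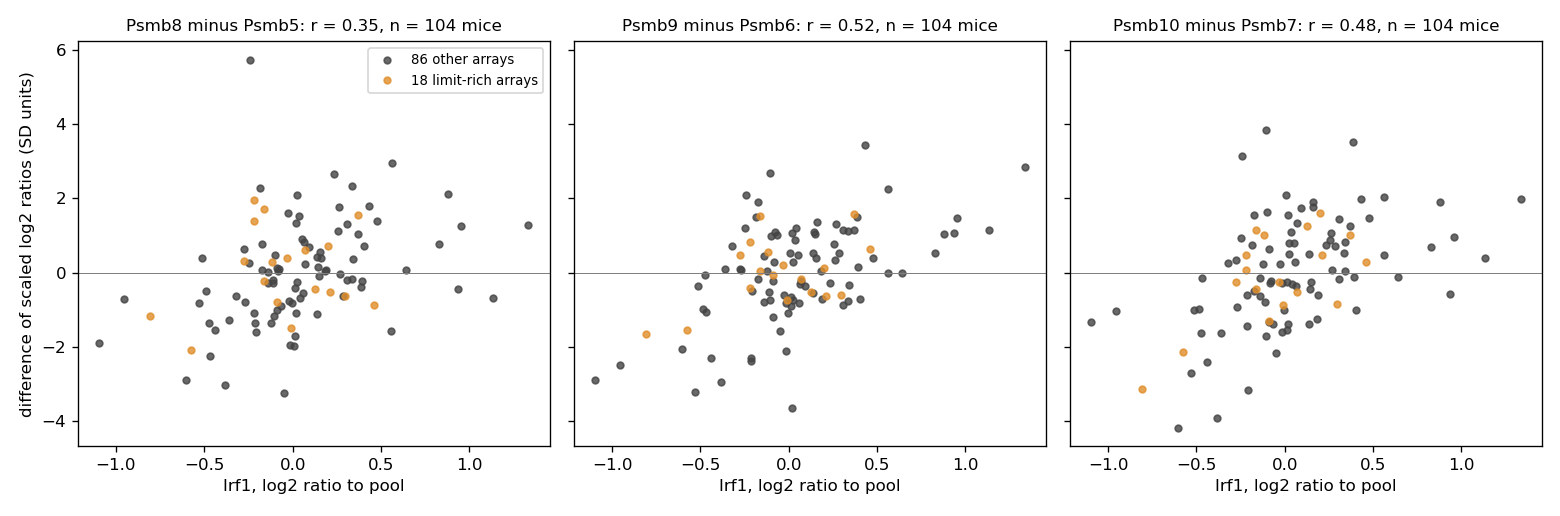
Difference between an immunoproteasome gene and the gene it replaces (y axis, SD units) against the log2 ratio of Irf1 to the pool (x axis), 1 point per mouse, orange for the 18 limit-rich arrays. All pairs slope upward, with r of 0.349, 0.516 and 0.475, and mouse 26 has the largest difference of Psmb8 and Psmb5.

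Nfe2l1, a transcription factor that raises proteasome genes when proteasome activity is short, ranged from -0.85 in mouse 83 through -0.04 to 0.41 in mouse 8. Calls with Nfe2l1 were widespread, at 21.8% positive and 20.9% negative of all genes. Of 32 constitutive genes, 9 were positive and 5 negative, with a median slope of 0.01 log2 per SD against 0.01 over all genes, and 0 of 5 inducible genes were called. Psmb8 came closest among them (r = -0.208, rho -0.105, permutation p = 0.0351 and 0.287, limma adjusted p = 0.0724). Positive calls were Psmb7, Psmc3, Psmc5, Psmd1, Psmd2, Psmd3, Psmd4, Psmd7 and Psmd12, of which 8 belong to the cap, and Psme4 was positive as well. Negative calls were Psma2, Psma3, Psmd8, Psmd10 and Psmd14. The largest values were -0.569 for Psmd8 (limma adjusted p = 4.18e-09), 0.483 for Psmd7 (limma adjusted p = 2.13e-06, from probes that disagree) and -0.435 for Psma2 (limma adjusted p = 2.91e-05). Without the limit-rich arrays 8 constitutive genes were positive and 6 negative, beside 23.3% positive and 21.7% negative of all genes. In these arrays alone 1 was positive and 0 negative, beside 2.43% and 1.4%. The share of positive constitutive genes lies near that of all genes, and r of Nfe2l1 with the constitutive mean was 0.0350.

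The Nfe2l1 counts moved with measures of the whole array. Nfe2l1 had r = -0.653 with the first principal component over the 10151 genes with a value on every array. That component held 27.9% of their variance. With that component as a covariate, positive and negative constitutive calls became 1 and 14 of 32, beside 9.84% positive and 9.44% negative of all genes. With arrays centred on their medians they became 4 and 8, beside 16.5% and 21.3%. Of 12 macrophage markers, 10 were negative with Nfe2l1 and 1, Clec4f of Kupffer cells, was positive. Negative calls also took in 7 of 8 neutrophil markers, 5 of 12 T and NK markers and 4 of 6 class II genes. All 6 cytosolic heat shock genes were positive with Nfe2l1, as were 12 of 19 interferon response genes, with 1 of these (Ifit2) negative. Without the limit-rich arrays the heat shock count was 5, the T and NK count 4 and the class II count 3, Clec4f was not called, and the other counts were as before. With the macrophage mean as a covariate 1 constitutive gene was positive and 6 were negative, beside 14.1% and 14.6% of all genes. The part of these cells in the Nfe2l1 calls was not tested beyond this covariate.

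The constitutive mean also moved with array measures. It had r = 0.414 with the array's median ratio and -0.423 with the first principal component, while the immunoproteasome mean had -0.0336 and 0.0568. The mean pairwise r of constitutive genes was 0.353 with arrays centred and 0.364 with that component as a covariate.

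Genes outside the members were ranked by r over 104 mice, with no p. Those most like the constitutive mean were Mrpl46 of the mitochondrial ribosome (0.856), Timm23 of the mitochondrial import channel (0.845), Cct6a of the cytosolic chaperonin (0.826), 1810009A15Rik (0.809), Ndufv2 of respiratory complex I (0.777), the mitochondrial co-chaperonin Hspe1 (0.775), Isca2 (0.775), cytochrome c Cycs (0.773), Mrpl58 (0.768) and Mrps24 (0.764). The constitutive genes themselves had a median r of 0.696 with the mean of the other constitutive genes, below each of these values. The lowest outside the members were Zfp704 (-0.720), Atp2b1 (-0.694), Mapk8ip3 (-0.685), Alcam (-0.682) and Zswim8 (-0.678). The values of the outside genes in the 86 arrays differed by little, with Mrpl46 at 0.857 and Zfp704 at -0.728.

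Those most like the immunoproteasome mean were the interferon-inducible GTPases Ifi47 (0.754) and Tgtp1 (0.732), Gbp3 (0.704), the cytokine signalling inhibitor Socs1 (0.703), the nucleic acid sensor Zbp1 (0.691), Gm8979 (0.672), Irf1 (0.670), Uba7 (0.667), Gbp2 (0.623) and Tap1 (0.619). The lowest were Nectin1 (-0.493), Eps8l2 (-0.482), Dnmbp (-0.478), Stt3b (-0.458) and Tns1 (-0.441). In the limit-rich arrays alone Ifi47 had 0.501 and Dnmbp -0.00773.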

How the data were processed

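Liver RNA of 104 mice was analysed as deposited by the authors, in values read as log10 ratios of mouse to pool and converted to log2. Per the labels each array had 2 colours and a common pool. How dyes were assigned or values normalized is not given in the sources at hand. The log base was inferred from limits at -2 and 2 (100-fold), and values there (1.07%) were treated as not measured. Probes measured on at least 90% of arrays and carrying 1 symbol were averaged per gene (12315 genes). A common pool gives ratios, not levels. Mice are separate samples of 1 group. The p-values test association or equal spread over these mice, and array noise is part of the variation between them.

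Each anchor gene (Psmb8, Psmb5, Irf1, Nfe2l1), scaled to SD 1, was the covariate of a limma 3.58.1 fit (R 4.3.3) over all genes. Irf1 was the replacement, set in the design, for an anchor that is not reported here. Correlations had 100000 two-sided permutations. Both procedures were tested on simulated data. Alternatives covered limits, missing values, the 18 limit-rich arrays (over 700 limit values), centring, ranks, extreme mice, single probes, the first principal component and cell markers; the T and NK cell covariate and leaving out mouse 20 or 26 were chosen after seeing the data. Members and lists were chosen with earlier results of these data known. Named genes were the catalytic pairs, activators, the extremes of each class, members with several probes and the leading genes of each list. Symbols came from GEO's platform table, updated through GRCm38.p6 gene names, and sequences from RefSeq.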

Additional observations from a re-analysis of the deposited data

How the results depend on the processing

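Of the main values recomputed under the alternatives, 190 stayed close, which means a count within 1.5 times, a test on the same side of its threshold or a mean r within 1 SD. Another 33 moved further, 3 tests lost the threshold and 1 test changed sign. The mean r of constitutive with immunoproteasome genes also changed sign in the limit-rich arrays alone, and is counted among the 33. Some of the 190 were set in advance. Only 1 member value lay at the limits, so keeping limits or changing the share of arrays hardly altered the members' own values. A count of 0 that stayed 0 also counts as close. Psmb8: the 4 inducible calls became 0 in the 18 limit-rich arrays alone and stayed 4 under each other setting. The 1 positive constitutive call became 2 with probes on every array, with centring, with the macrophage covariate or without mouse 26, 3 with the first principal component (beside 1 negative), and 0 with ranks, the T and NK covariate, the limit-rich arrays alone or without mouse 20. Psmb5: the 23 constitutive calls became 0 in the limit-rich arrays alone (19 at an unadjusted p under 0.05), 1 negative call appeared with ranks, and the 1 inducible call became 2 with probes on every array, without the limit-rich arrays or with ranks, 3 with the T and NK covariate and 0 in the limit-rich arrays alone. Irf1: the 5 inducible calls became 0 in the limit-rich arrays alone, and the 2 negative constitutive calls became 1 with limits kept or with probes on at least 50% of arrays, and 0 with centring or with the limit-rich arrays left out or alone. Nfe2l1: the 9 positive and 5 negative constitutive calls became 1 and 0 in the limit-rich arrays alone, 4 and 8 with centring, 1 and 14 with the first principal component, and 1 positive call was made with the macrophage covariate. In the limit-rich arrays alone the Irf1 correlations of the Psmb8 and Psmb9 differences were 0.210 and 0.457, the spread tests of these pairs 0.269 and -0.0496, and the mean r of immunoproteasome genes 0.630 and of constitutive with immunoproteasome genes -0.143. That setting has 18 arrays, and otherwise the cause was not tested. In that setting the positive calls over all genes went from 593 to 0 for Psmb8, 1632 to 0 for Psmb5, 233 to 0 for Irf1 and 2682 to 299 for Nfe2l1. Those for Psmb8 also became 128 with ranks and 71 with the T and NK covariate, those for Psmb5 998 with centring, 948 with the first principal component and 2758 with ranks, and those for Irf1 147 without the limit-rich arrays, 577 with that component, 578 with the macrophage and 507 with the T and NK covariate. Those for Nfe2l1 became 1212 with that component and 1734 with the macrophage covariate. Spread tests on ranks are void, since ranks have equal spread by construction, and are not counted above. No paired analysis was possible because all mice form 1 group.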

Other observations

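Marker lists outside the proteasome were counted in the same fits. With Psmb5, 5 of 7 hepatocyte genes (Apoa1, Apoc3, Ahsg, Ttr and Arg1) and 2 of 6 cytosolic heat shock genes (Hspa8 and Hsph1) were called positive by limma, and 3 of 6 class II genes (H2-Ab1, H2-Aa and Cd74) negative, beside 13.3% and 13.9% of all genes. With Psmb8, 0 of 7 hepatocyte genes and 0 of 6 class II genes were called, beside 4.82% and 2.29% of all genes. Ahsg, Hsph1 and H2-Ab1 were not called with Psmb5 once the limit-rich arrays were left out. The difference between both anchors was not tested for these lists.

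The mean of 14 assembly factors and partners had r = 0.676 with the constitutive mean and -0.0159 with the immunoproteasome mean over 104 mice. That list also holds the cap subunit Sem1 and the genes Nfe2l1 and Nfe2l2. The mean of 6 heat shock genes had 0.545 and -0.0747. The mean of 6 class II genes had -0.301 and 0.362, and that of 19 interferon response genes 0.150 and 0.576.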
